A study of Mus musculus with 3 samples.

Results

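The genes described here are 10 mouse genes for costimulation and adhesion, namely Cd40, Cd80, Cd83, Cd86, Cd274, Pdcd1lg2, Icosl, Icam1, Tnfsf9 and Vcam1. They were chosen by symbol and are 10 of the 55536 annotated genes in the deposited tables. Their RNA was measured in bone-marrow-derived macrophages of C57BL/6J mice, cells grown out of marrow precursors, that had been given 100 ng/ml lipid A for 30 min. Lipid A is the part of bacterial lipopolysaccharide that Toll-like receptor 4 recognises. RNA bound to chromatin was isolated, ribosomal RNA was depleted, and total RNA was sequenced. Such RNA holds many transcripts that are still being made or spliced.

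All samples form 1 group of 3 libraries, labelled as biological replicates 1, 2 and 3. They were started from 1 µg, 250 ng and 500 ng of RNA in that order. All 3 carry the same donor record, and the labels used here do not say whether they came from separate mice, so the spread between them may be technical. Age was not recorded and no allele other than the strain is named. No unstimulated library was analysed here, so the values below are levels at 30 min of lipid A and not changes caused by it. These are bulk samples, in which fewer cells of a type and less RNA per cell cannot be told apart.

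A T cell that meets its antigen on a presenting cell also reads a second set of contacts. Ligands of the B7 family, such as CD80 and CD86, bind CD28 to promote activation or CTLA-4 to restrain it, while PD-L1 and PD-L2 bind the inhibitory receptor PD-1. Receptors and ligands of the TNF superfamily, such as CD40 and 4-1BB ligand, carry signals between the same cells, and ICAM-1 and VCAM-1 hold cells together by binding integrins. In macrophages, Toll-like receptor signalling through NF-kB is known to induce several of these genes.

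The expected counts that fell on annotated genes came to 16301150, 17033725 and 16205704 in libraries 1, 2 and 3. A gene was called detected when its mean expected count over the libraries was at least 10. By that rule 9 of the 10 genes were detected, all but Pdcd1lg2, where the background was 25.9% of all annotated genes and 49.9% of the 22028 protein-coding genes. Levels are given in TPM, which divides by transcript length and scales each library to the same total, so levels of genes can be set side by side. A gene's TPM sums all its annotated transcripts, also those that are not protein-coding, so such a comparison depends on the annotation. TPM values in library 3 were generally high: relative to each gene's mean over libraries, the median deviation of detected genes in log2 TPM was 0.52 there, against -0.37 in library 1 and -0.14 in library 2. Differences between libraries are therefore given as log2 CPM, counts without division by length, with library sizes scaled by TMM. All 9 macrophage markers examined were detected, with summed levels of 1274 to 1703 TPM, so the cell label and the markers match. No marker of B or T cells was detected (0 of 6 each).

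The 10 genes had a median level of 37.9 ± 8.23 TPM, against 4.94 ± 1.75 TPM for the median detected protein-coding gene (SD, n = 3 libraries each). In each library 9 of the 10 were above that median gene, and the means of 8 reached 10 TPM. Their own levels spanned more than 3 orders of magnitude on the log axis, with Icam1 at the top and Pdcd1lg2 at the bottom. Icam1, Cd83 and Tnfsf9 held places 1, 2 and 3 among the 10 in every library of the first quantification, and Pdcd1lg2 held the last. In the second deposited quantification, described at the end, Pdcd1lg2 was again last in every library but the top places differed.

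**Figure D1:**
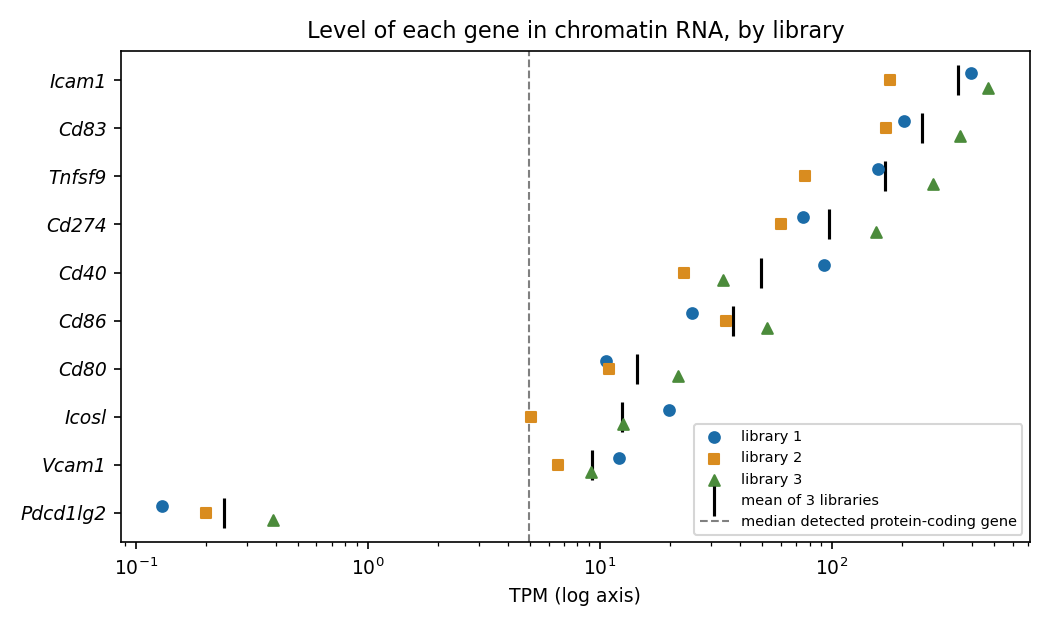
TPM of each gene (horizontal, log axis) in library 1 (circles), library 2 (squares) and library 3 (triangles), with the 3-library mean as a vertical tick. The dashed line is the median detected protein-coding gene at 4.94 TPM; 9 genes lie to its right in their means and Pdcd1lg2 lies far to its left.

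Promoter sequences are shown for the genes at the top and the bottom of this order, Icam1 and Pdcd1lg2. They are the 250 bases before the RefSeq start of each gene (GRCm38.p6), on the plus strand for both, at chr9:21015690-21015939 for Icam1 and chr19:29410669-29410918 for Pdcd1lg2. Capitals mark motif matches as described after the sequences.
Icam1: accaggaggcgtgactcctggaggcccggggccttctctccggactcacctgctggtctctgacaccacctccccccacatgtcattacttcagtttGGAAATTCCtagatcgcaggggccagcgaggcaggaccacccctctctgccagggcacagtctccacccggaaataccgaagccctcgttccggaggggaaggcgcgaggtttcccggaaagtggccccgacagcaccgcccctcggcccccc
Pdcd1lg2: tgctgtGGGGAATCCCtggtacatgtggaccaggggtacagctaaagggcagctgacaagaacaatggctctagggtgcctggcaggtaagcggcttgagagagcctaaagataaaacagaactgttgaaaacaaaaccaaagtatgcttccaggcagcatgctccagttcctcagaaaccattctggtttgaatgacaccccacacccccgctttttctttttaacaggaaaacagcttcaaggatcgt

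RefSeq windows of this length were found for 5 of the 10 genes, namely Cd80, Cd274, Pdcd1lg2, Icosl and Icam1. On both strands they were searched for the general NF-kB consensus, for the TATA box TATAAA and for the AP-1 motif TGANTCA. The capitals in the Pdcd1lg2 window are a match to the NF-kB consensus, found on both strands at the same place, 244 to 235 bases before the start. No other of the 5 windows held that consensus, and 3.9% of 32851 windows of the same length did. The AP-1 motif was found in 1 of the 5, in Cd80 at 42 to 36 bases before the RefSeq start, and in 6.75% of all windows. That RefSeq start lies 3372 bases downstream of the annotated start of Cd80 given below, so this window lies inside the annotated gene. TATAAA was found in none of the 5 and in 12.4% of all windows. The capitals in the Icam1 window are the letters GGAAATTCC at 153 to 145 bases before the start, a variant of the NF-kB motif known from the human ICAM1 promoter. That motif was chosen after the window had been read, and 0.286% of all windows hold it. The highest of the 10 genes thus had no match to the consensus in this window and the lowest had one. A match here is a description of letters and not a measured binding site.

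Icam1 encodes the ligand of the integrins LFA-1 and Mac-1. It lies on chromosome 9 at 21015985 to 21028817 of mm10 on the plus strand (ENSMUSG00000037405.8). Its level was 398 TPM in library 1, 178 TPM in library 2 and 472 TPM in library 3, from 22566, 9058 and 15807 expected counts. It ranked 27th, 117th and 41st of the 10983 detected protein-coding genes in those libraries. Its mean was 350 ± 153 TPM (SD, n = 3). On the log2 CPM scale it was highest in library 1 at 10.51, with 9.82 in library 3 and 9.09 in library 2. Its SD of 0.71 was larger than that of 92% of detected genes, with library 3 about midway between the others.

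Vcam1 encodes the ligand of the integrin VLA-4 and is best known from activated endothelium. It lies on chromosome 3 at 116109949 to 116129688 on the minus strand (ENSMUSG00000027962.14). Its level was 12.1, 6.60 and 9.14 TPM in libraries 1, 2 and 3, from 967, 456 and 462 expected counts. Library 1 stood above the other two, which were close to each other on the log2 CPM scale (5.97 against 4.78 and 4.72). Icam1 exceeded Vcam1 in 3 of 3 libraries, by 5.15 ± 0.48 on the log2(TPM + 0.1) scale, or 35.4-fold. The exact permutation p (two-sided, by flipping signs) was 0.25, the smallest that 3 libraries allow, and 0.393 adjusted over the 11 pairs compared.

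Markers of the cell types in which VCAM-1 is prominent were low. Of 8 endothelial markers 3 were detected, and their summed level of 41.4 to 59.7 TPM was nearly all Vwf (45.6 ± 9.95 TPM). The other detected ones were Kdr at 1.18 ± 0.42 TPM and Pecam1 at 0.48 ± 0.23 TPM. In the second quantification Pecam1 averaged 5.21 TPM. The endothelial genes Cdh5 and Cldn5 were not detected and averaged 0.16 and 0 TPM. Of 8 stromal markers 3 were detected, with summed levels of 0.13, 1.22 and 1.09 TPM in libraries 1, 2 and 3. These sums rest on at most 31 expected counts for Col1a1, the stromal collagen gene. The part of such cells in the level of Vcam1 was not tested.

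The integrin genes on the other side of these contacts were all detected, 7 of 7, with a median of 16.2 ± 1.57 TPM. Itga4, the alpha chain of VLA-4, was highest at 128 ± 50.3 TPM. Itgb1, its beta chain, averaged 35.5 ± 6.77 TPM and Itgb2, the beta chain of LFA-1 and Mac-1, 30.1 ± 8.50 TPM. Among 11 other adhesion genes 5 were detected. Alcam, a ligand of CD6, averaged 80.9 ± 25.1 TPM, Cd44, the hyaluronan receptor, 74.5 ± 11.8 TPM and Selplg, the selectin ligand PSGL-1, 2.96 ± 2.11 TPM. Icam2 and Icam4, relatives of Icam1, were not detected (0.17 and 0.083 TPM).

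Tnfsf9 encodes 4-1BB ligand, which costimulates T cells through 4-1BB. It is the shortest of the 10 genes at 2433 nt, on chromosome 17 at 57105325 to 57107757 on the plus strand (ENSMUSG00000035678.8). Its level was 158, 76.2 and 274 TPM in libraries 1, 2 and 3, from 4603, 1966 and 4667 expected counts, with a mean of 169 ± 99.3 TPM. On the log2 CPM scale libraries 1 and 3 were close (8.22 and 8.06) and library 2 was lower (6.89). Of 12 other TNF-superfamily ligands 6 were detected, with a median over the list of 0.12 ± 0.069 TPM. The highest were Tnfsf13 (APRIL) at 10.3 ± 4.97 TPM, Tnfsf12 (TWEAK) at 7.58 ± 4.25 TPM and Tnfsf14 (LIGHT) at 0.41 ± 0.18 TPM. The expected counts of Tnfsf12 and Tnfsf13 were not whole in every library (119.36 and 211.72 in library 1), so some of their reads were divided between genes and their split is uncertain. The same holds for Icam1, Cd274 and Tnfsf9 among the 10 genes, whose expected counts are rounded here; those of the other 7 were whole in all 3 libraries. Cd70 and Tnfsf4 (OX40 ligand), both T-cell costimulators, were not detected (0 and 0.12 TPM).

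Cd40 encodes the receptor through which CD40 ligand on T cells activates antigen-presenting cells. It lies on chromosome 2 at 165055627 to 165072948 on the plus strand (ENSMUSG00000017652.16). Its level was 91.9 TPM in library 1, 23.1 TPM in library 2 and 33.8 TPM in library 3, from 2419, 540 and 792 expected counts. Library 1 stood far above the others, at 7.29 log2 CPM against 5.03 and 5.50. Its SD of 1.19 was larger than that of 98.6% of detected genes. The mean was 49.6 ± 37.0 TPM with all 3 libraries and 28.5 TPM without library 1.

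Cd83 encodes a membrane protein best known as a marker of mature dendritic cells. It lies on chromosome 13 at 43784775 to 43803132 on the plus strand (ENSMUSG00000015396.4). Its level was 205, 171 and 356 TPM in libraries 1, 2 and 3, from 10904, 8297 and 11302 expected counts, with a mean of 244 ± 98.5 TPM. The libraries were close on the log2 CPM scale, at 9.46, 8.97 and 9.33. Its SD of 0.26 was larger than that of 43.8% of detected genes. Of 7 dendritic-cell markers 3 were detected, and the 7 had summed levels of 2.08 to 4.85 TPM. Those detected were Batf3 at 2.00 ± 1.01 TPM, Zbtb46 at 0.62 ± 0.32 TPM and Clec9a at 0.43 ± 0.22 TPM. Flt3, another gene of that lineage, was not detected, and averaged 0.03 TPM in the first quantification and 1.01 TPM in the second.

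Cd86 and Cd80 encode the paired B7 ligands of CD28 and CTLA-4. They lie on chromosome 16, Cd86 at 36603869 to 36666081 on the minus strand (ENSMUSG00000022901.13) and Cd80 at 38455561 to 38496335 on the plus strand (ENSMUSG00000075122.5). Cd86 is the longest of the 10 genes at 62213 nt. Its level was 24.9, 34.8 and 52.4 TPM in libraries 1, 2 and 3, from 680, 687 and 788 expected counts. Cd80 had 10.6, 10.9 and 21.6 TPM, from 530, 481 and 725 expected counts. Cd86 exceeded Cd80 in 3 of 3 libraries, by 1.39 ± 0.24 on the log2(TPM + 0.1) scale, or 2.62-fold (exact permutation p = 0.25, two-sided, adjusted 0.393). This lead rests on Cd86 transcripts that are not protein-coding, described below. The only coding one, Cd86-201, had 5.75, 3.65 and 8.79 TPM in libraries 1, 2 and 3. That was below Cd80, whose transcripts are all coding, in every library. Cd80-202, the Cd80 transcript with the most exons, had 3.03, 3.10 and 9.15 TPM. That was below Cd86-201 in libraries 1 and 2 and above it in library 3. Of the 1701 bases of Cd80-201, another coding Cd80 transcript, 31.2% lie in introns of Cd80-202. The order of Cd86 and Cd80 thus depends on which transcripts are counted. Cd86 was also the steadiest of the 10, at 5.46, 5.37 and 5.49 log2 CPM, with an SD larger than that of only 3.8% of detected genes.

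Icosl encodes the ligand of the T-cell receptor ICOS. It lies on chromosome 10 at 78069302 to 78083913 on the plus strand (ENSMUSG00000000732.9). Its level was 19.8 TPM in library 1, 5.04 TPM in library 2 and 12.6 TPM in library 3, from 1148, 252 and 414 expected counts. As for Cd40, library 1 was far above the others on the log2 CPM scale, at 6.21 against 3.93 and 4.56, and the SD of 1.18 was larger than that of 98.5% of detected genes.

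Cd274 and Pdcd1lg2 encode PD-L1 and PD-L2, both ligands of PD-1. They are neighbours on the plus strand of chromosome 19, Cd274 at 29367455 to 29388095 (ENSMUSG00000016496.7) and Pdcd1lg2 at 29410919 to 29471161 (ENSMUSG00000016498.10). Cd274 had 74.7, 60.4 and 155 TPM in libraries 1, 2 and 3, from 6819, 5003 and 8493 expected counts, with a mean of 96.8 ± 51.2 TPM. Pdcd1lg2 had 0.13, 0.20 and 0.39 TPM. Those rest on 5, 7 and 9 expected counts, whose exact Poisson 95% intervals were 1.62 to 11.7, 2.81 to 14.4 and 4.12 to 17.1 and cover counting error only. The intervals overlap, so no order of the libraries for Pdcd1lg2 was detectable at this depth.

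Cd274 exceeded Pdcd1lg2 in 3 of 3 libraries, by 8.10 ± 0.39 on the log2(TPM + 0.1) scale, or 275-fold (exact permutation p = 0.25, two-sided, adjusted 0.393). The size of this difference depends on the pseudocount, because Pdcd1lg2 was so low, and it was 6.19 with a pseudocount of 1. An annotated antisense gene, AC119228.1, lies on the other strand of Cd274 and had 5552, 3492 and 6938 expected counts. Of its exon bases 89.2% lie in introns of Cd274, and 511 of them are shared with Cd274 exons, or 14.1% of the exon bases of Cd274. The strand setting of the counting is not given in the sources used here. The expected counts of Cd274 and AC119228.1 were not whole (6818.77 and 5552.23 in library 1), but their sum was whole in each library. Some reads were therefore divided between these genes although they lie on opposite strands. Reads of the antisense gene and intron reads of Cd274 thus cannot be told apart. Antisense or opposite-strand neighbours with fewer counts also overlap Icam1 (Gm47079, 511 shared exon bases, 415 to 1072 expected counts), Tnfsf9 (Gm11110, 192 bases, 36.0 to 64.1) and Vcam1 (Gm43109, 61 bases, 0 to 2). Expected counts of Tnfsf9 and Gm11110 also had a whole sum in each library, and those of Icam1 and Gm47079 in libraries 1 and 3. The opposite-strand neighbour of Pdcd1lg2, A930007I19Rik, shares no exon base with it and had 48 to 103 expected counts, more than Pdcd1lg2 itself.

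Of 10 other B7 and checkpoint ligands 7 were detected, with a median over the list of 2.69 ± 0.48 TPM. Pvr, a ligand of TIGIT and CD226, averaged 101 ± 47.6 TPM, Cd48, a ligand of CD244, 27.6 ± 10.4 TPM and Tnfrsf14 (HVEM), a ligand of BTLA, 18.9 ± 5.46 TPM. Cd276 and Vtcn1, B7 family members, were not detected (0.02 and 0 TPM). Of 10 T-cell counter-receptors 4 were detected. The highest was Cd28, the receptor of CD80 and CD86, with 15.1, 18.8 and 53.9 TPM in libraries 1, 2 and 3 from 1214, 1278 and 2757 expected counts. Cd27 and Havcr2 (TIM-3) averaged 2.78 ± 1.20 and 2.18 ± 1.21 TPM, while Ctla4 and Icos were not detected (0.0067 and 0.17 TPM). The 6 T-cell markers summed to 0.20 to 0.41 TPM. Cd3e and Cd3g were at 0 in every library of the first quantification, and Cd3d averaged 0.01 TPM there but 14.1 TPM in the second.

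By mean TPM the order of the 10 genes was Icam1, Cd83, Tnfsf9, Cd274, Cd40, Cd86, Cd80, Icosl, Vcam1 and Pdcd1lg2. Of the 9 neighbouring pairs in this order, 5 had the same sign in all 3 libraries and a mean difference above its SD. These were Icam1 over Cd83 (0.48 ± 0.46 on the log2(TPM + 0.1) scale), Cd83 over Tnfsf9 (0.64 ± 0.46), Tnfsf9 over Cd274 (0.74 ± 0.38), Cd86 over Cd80 and Vcam1 over Pdcd1lg2 (4.82 ± 0.80). Each of these 5 had the smallest exact permutation p that 3 libraries allow, 0.25 (two-sided, adjusted 0.393). The order was set from the same values, so the signs are a description of it and not a test. The other 4 did not differ beyond their spread, namely Cd274 over Cd40 (1.09 ± 1.27), Cd40 over Cd86 (0.22 ± 1.44), Cd80 over Icosl (0.33 ± 1.07) and Icosl over Vcam1 (0.26 ± 0.57). The place of Cd40 and Icosl in the order is thus not settled by these libraries. Cd40 was above Cd274 and Cd86 in library 1 and below both in libraries 2 and 3. The order rests on levels summed over all transcripts of a gene, and on coding transcripts alone it differed. The coding Icam1-201 had 145, 57.8 and 148 TPM in libraries 1, 2 and 3, below Tnfsf9 in each. In the second quantification Icam1-201 had 233, 76.5 and 205 TPM and Tnfsf9 208, 70.3 and 283 TPM. There Icam1-201 was above Tnfsf9 in libraries 1 and 2, so this order depends on the quantification. The coding Cd83-201 had 25.1, 30.1 and 47.0 TPM in the first, below Cd274 in each library. It was also below Cd274 in each library of the second.

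Library 2 had the lowest log2 CPM for 8 of the 10 genes, where 35.9% of detected genes were lowest in that library. Library 1 had the highest for 6 of the 10, namely Icam1, Cd83, Tnfsf9, Cd40, Icosl and Vcam1, where 29.7% of detected genes were highest there. Library 3 had the highest for the other 4, with a background of 38.4%, and library 2 for 0 of 10, with a background of 32%. Vcam1 was lowest in library 3 (background 32.5%). The remaining gene, Pdcd1lg2, had its lowest value in library 1 (background 31.6%) and its highest in library 3, but with so few counts that this order is within counting error. For Cd86 libraries 1 and 3 were so close that DESeq2 size factors put library 1 first. The SD exceeded that of 91.8% to 98.6% of detected genes for Icam1, Tnfsf9, Cd40, Icosl and Vcam1, while Cd83, Cd86 and Cd80 varied less than the median detected gene (SD 0.284). Each library was started from a different amount of RNA, so library and starting amount cannot be told apart.

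**Figure D2:**
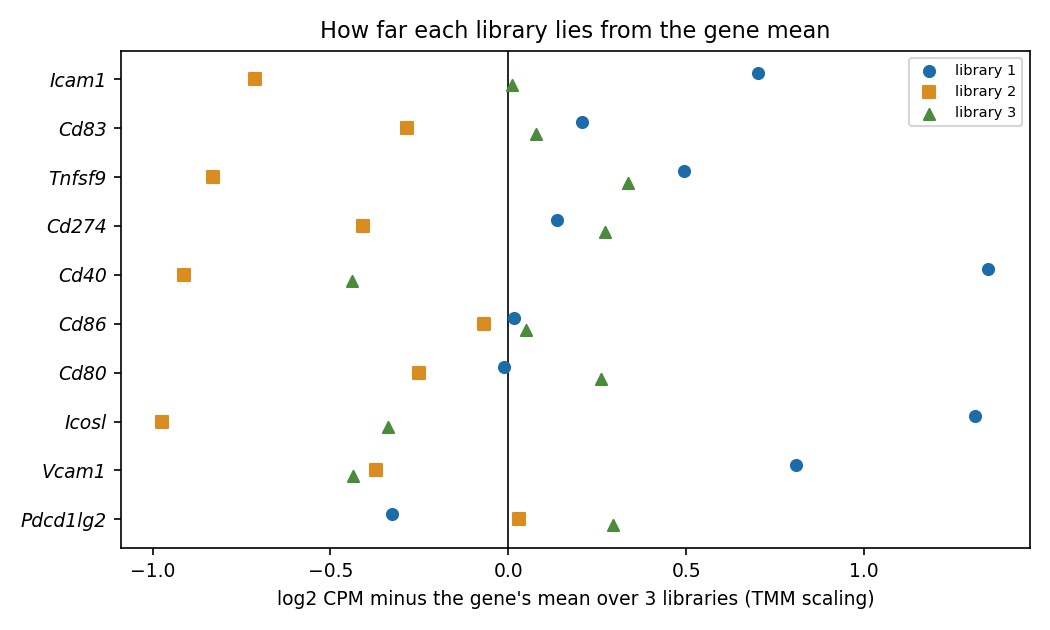
Log2 CPM of each gene in library 1 (circles), library 2 (squares) and library 3 (triangles) minus the gene's mean over the 3 libraries. Cd40 and Icosl in library 1 lie furthest right, and the 3 points of Cd86 almost coincide.

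The genes with levels most like those of the top 3 were found by the root mean square difference in log2(TPM + 0.1) over the 3 libraries. For Icam1 they were Fam20c (0.409) and Tnf (0.449), the second with 236, 165 and 421 TPM in libraries 1, 2 and 3. For Cd83 they were Ptprc (0.0711), which encodes CD45, and Cdkn1a (0.0729), which encodes the cell-cycle inhibitor p21. For Tnfsf9 they were Cflar (0.272), which encodes the caspase-8 inhibitor c-FLIP, and Atf3 (0.315), a stress-induced transcription factor. Cd83 had much closer neighbours than Icam1 or Tnfsf9.

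The transcript tables divide each gene's abundance among its annotated transcripts (IsoPct, percent of the gene's abundance). Of the 10 genes, 6 have an annotated transcript that is not protein-coding, and in 5 of them such transcripts took more than 50% of the abundance. Among the 9017 detected protein-coding genes with such a transcript, 43.2% had under 50% on protein-coding ones, and the median protein-coding share was 55%. The other 4 genes, Tnfsf9, Cd274, Cd80 and Pdcd1lg2, have protein-coding transcripts only, so for them the division could show nothing of this kind.

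**Figure D3:**
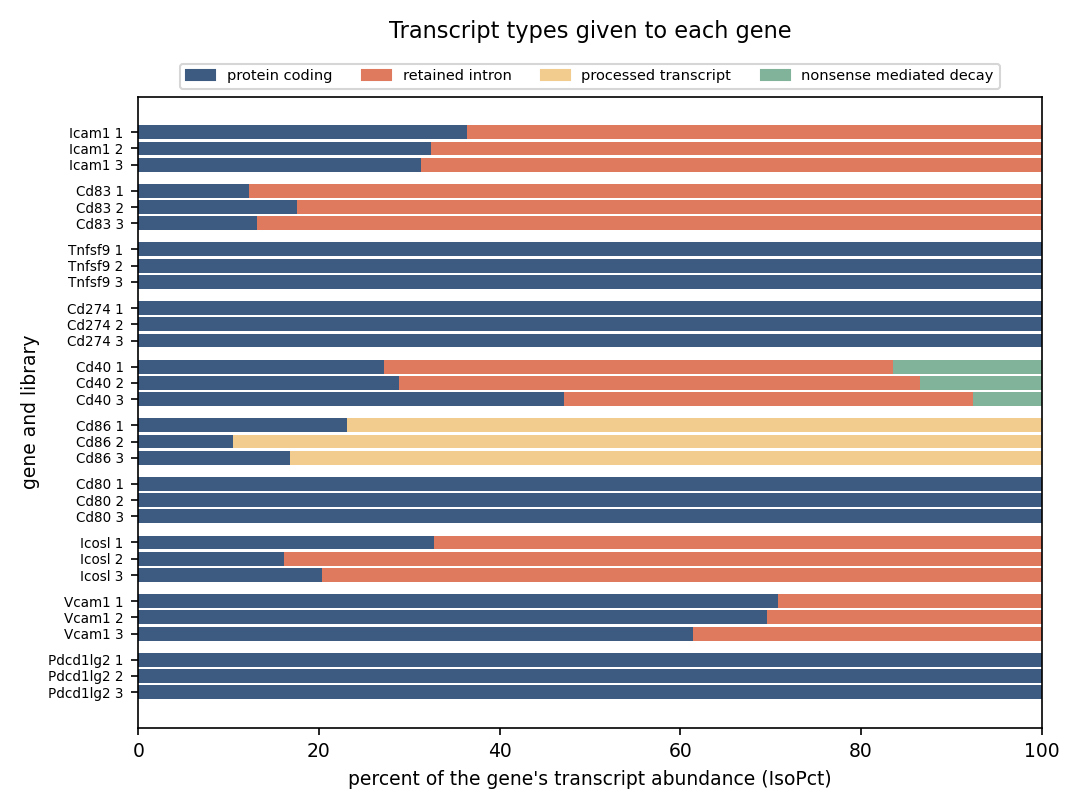
Percent of each gene's transcript abundance (IsoPct, horizontal) by annotated transcript type, with 1 bar for each gene and library. Protein-coding transcripts take the smaller part in Icam1, Cd83, Cd40, Cd86 and Icosl in every library, and the larger part in Vcam1.

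Icam1 has 2 annotated transcripts. The retained-intron transcript Icam1-202 took 63.6%, 67.6% and 68.7% in libraries 1, 2 and 3, and the coding Icam1-201 took 36.4%, 32.4% and 31.4%. The libraries hardly differed, although the gene's level did. In the second quantification Icam1-202 took 55.6 ± 1.15% and Icam1-201 44.4 ± 1.15%. Of the 2203 bases of Icam1-202, 82.8% lie in 1 intron of Icam1-201, near the 5′ end of the gene, and cover a part of that intron.

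In Cd83 the retained-intron transcript Cd83-202 took 85.7 ± 2.81% and the coding Cd83-201 14.3 ± 2.81%. In the second quantification the shares were 72.5 ± 1.19% for Cd83-202 and 27.5 ± 1.19% for Cd83-201. Cd83-202 keeps 1 whole intron of Cd83-201, a short one of 95 bases, or 4.40% of the 2158 bases of Cd83-202. The rest of its bases are shared with the exons of Cd83-201.

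In Cd86 the processed transcript Cd86-203 took 57.1 ± 8.82% and the coding Cd86-201 16.8 ± 6.33%. Of the 975 bases of Cd86-203, 86.3% lie in 1 intron of Cd86-201, close to the gene start. By expected counts the coding transcript held 41.4 ± 11.4%; counts, unlike IsoPct, are not divided by length. In Icosl the 2 retained-intron transcripts together took 76.9 ± 8.63% (Icosl-204 42.3 ± 5.35% and Icosl-202 34.6 ± 3.64%) and Icosl-201, the coding transcript with the most exons, 22.6 ± 8.88%. In the second quantification the retained-intron transcripts of Icosl took 65.5 ± 6.11%, Icosl-201 3.74 ± 5.42% and the coding Icosl-203 30.8 ± 11.4%, against 0.47 ± 0.81% for Icosl-203 in the first, so the coding part was divided differently. Cd80, whose 3 transcripts are all coding, had 61.9 ± 5.17% on Cd80-201, 33.1 ± 8.02% on Cd80-202 and 5.03 ± 3.92% on Cd80-203. In the second these were 39.7 ± 9.00%, 39.4 ± 15.0% and 20.9 ± 12.5%, with Cd80-202 above Cd80-201 in libraries 2 and 3, so the order of the Cd80 transcripts was not stable.

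Cd40 has 7 annotated transcripts, and its division depended most on the measure. The retained-intron transcript Cd40-205, of 545 bases, took 53.1 ± 6.78% of the abundance but 16.1 ± 5.56% of the expected counts. The coding Cd40-201, of 2986 bases, took 32.8 ± 11.8% of the abundance and 78.7 ± 7.98% of the counts. Cd40-201 alone had 24.0, 5.96 and 15.7 TPM in libraries 1, 2 and 3, so library 1 remained the highest and library 2 the lowest. In Vcam1 the retained-intron transcript Vcam1-204 took 32.7 ± 5.11% and the coding ones 67.3 ± 5.11%; 92.1% of the bases of Vcam1-204 lie in introns of Vcam1-201. Among the coding ones the short Vcam1-203 took the most, 40.5 ± 4.45%, and 59.8% of its bases also lie in an intron of Vcam1-201. Vcam1-201 itself, with the most exons, took 23.6 ± 2.07%.

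**Figure D4:**
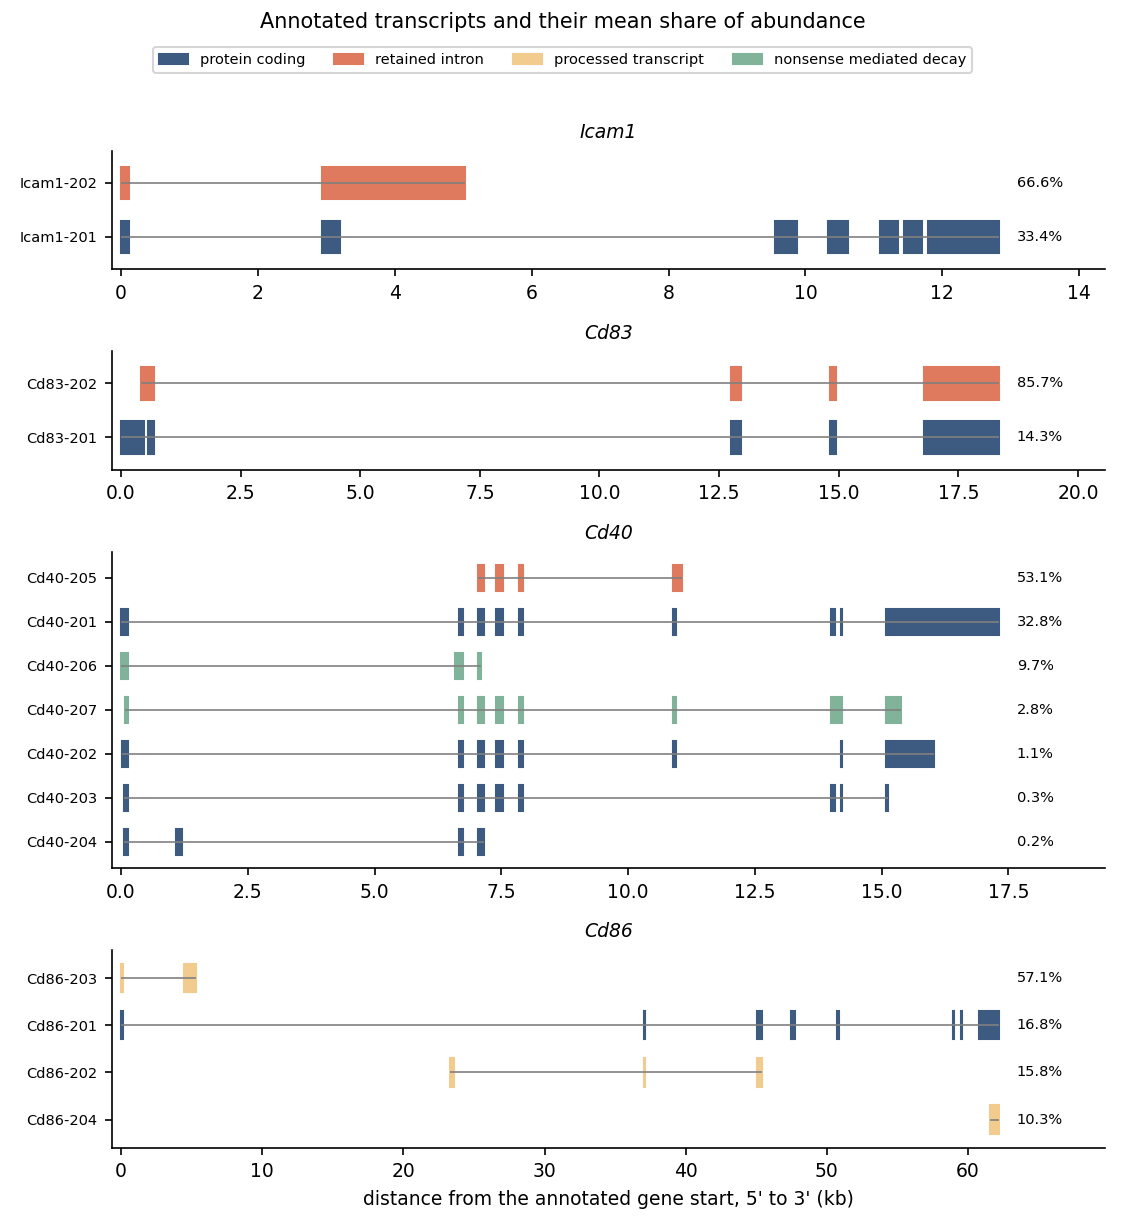
Exons (boxes) of the annotated transcripts of Icam1, Cd83, Cd40 and Cd86 against distance from the gene start in kb, coloured by transcript type, with the mean IsoPct over 3 libraries at the right. Icam1-202 (66.6%) and Cd86-203 (57.1%) lie near the gene start and hold intron sequence of the coding transcript, while Cd83-202 (85.7%) shares most of its exons with Cd83-201.

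A second deposited quantification of the same libraries gave similar levels with 1 large exception. For 9 of the 10 genes the ratio of the second TPM to the first, averaged over libraries, was 0.92 to 2.03, where the median ratio for detected protein-coding genes was 1.73, 1.22 and 1.35 in libraries 1, 2 and 3. Cd40 had 670, 174 and 294 TPM in the second and 91.9, 23.1 and 33.8 TPM in the first, a mean ratio of 7.84. Library 1 was highest and library 2 lowest for Cd40 in both. Its counts were also higher in the second, by a mean factor of 4.28, against 1.23 to 2.38 for the other 9 genes and medians of 1.5 to 1.66 over the libraries for detected protein-coding genes. The second quantification gave the short transcripts Cd40-205, Cd40-204, Cd40-206 and Cd40-203 shares of 29.7%, 27.7%, 18.4% and 15.6% of the gene's TPM, and Cd40-201 5.42 ± 1.55%. The level of Cd40 relative to the other genes therefore rests on the quantification: in the second it was above Icam1 in libraries 1 and 2 (670 and 174 TPM for Cd40, 515 and 170 TPM for Icam1) and below it in library 3 (294 and 476 TPM), while in the first Icam1, Cd83 and Tnfsf9 were above it in every library. Cd83 was the highest of the 10 in library 2 of the second, at 191 TPM, so Icam1 exceeded Cd83 there in 2 of 3 libraries, against 3 of 3 in the first. The level of Cd40-201, the Cd40 transcript with the most exons, was alike in both, at 19.6 ± 10.9 TPM in the second and 15.2 ± 9.04 TPM in the first. Cd40-203 and Cd40-204 are also annotated as coding. They averaged 59.8 and 102 TPM in the second, and 0.15 TPM each in the first. The level of all coding Cd40 transcripts was thus not alike.

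**Figure D5:**
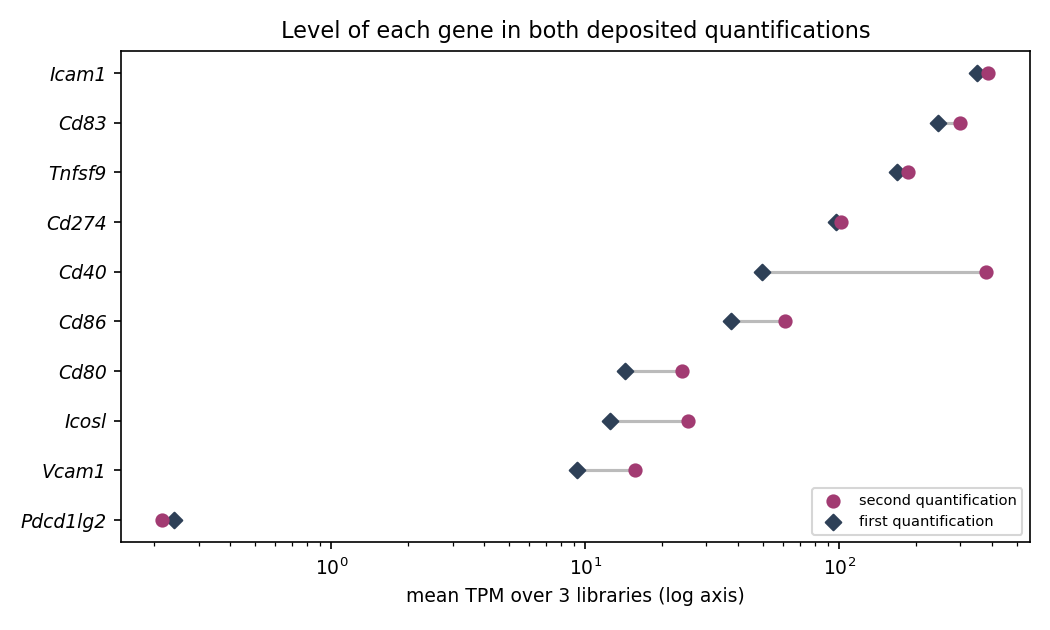
Mean TPM over 3 libraries (log axis) of each gene in the second deposited quantification (circles) and the first (diamonds), joined by a line. Cd40 had 379 TPM in the second and 49.6 TPM in the first, by far the longest line of the 10.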

How the data were processed

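Each of 3 libraries has 3 tables. The gene table and a transcript table in RSEM layout give the authors' expected counts, TPM and IsoPct (percent of a gene's abundance), per the file headers. A further transcript table, the second quantification, gives the authors' estimated counts and TPM, which were summed per gene. The deposited notes name mm10 and GENCODE M21. Which program made which table, its version, the read length and whether counting used strand are not stated in these sources. Rows other than annotated genes (26345) held 0.22% to 1.03% of expected counts and stayed out of CPM.

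Log2 CPM came from rounded expected counts with TMM in edgeR 4.0.16 (R 4.3.3), prior count 0.5, and DESeq2 1.42.0 size factors as the alternative; the scaling was tested on simulated data. With 1 group, no test between conditions was made for any gene. Pairs of genes were compared on log2(TPM + 0.1) by exact sign-flip permutation, adjusted by Benjamini-Hochberg over 11 pairs. Named genes are all members, and of each of 7 other lists the 3 highest and up to 2 undetected genes, plus overlapping neighbours and the 2 genes closest to each of the top 3. Members and lists were chosen with earlier results of these data known.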

Additional observations from a re-analysis of the deposited data

How the results depend on the processing

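The members' median log2(TPM + 0.1) was 5.22. It was 6.22 in the second quantification and 6.77 when TPM was rescaled to genes with 300 nt or more, which raises every remaining gene by construction, and 5.12 to 5.42 with 1 library left out. The detected count stayed at 9 in the second quantification, with 1 library left out and under both stricter filters, and was 10 with any mean count above 0. The count of neighbouring pairs with the first-named gene higher in every library was 5 with all libraries and 5 to 7 with 1 left out. A pair that holds in all 3 libraries also holds in any subset, so leaving 1 out could not lower this count. With 1 library left out, Cd86 over Cd80 was 1.25 to 1.47, Cd274 over Pdcd1lg2 7.98 to 8.33 and Icam1 over Vcam1 4.88 to 5.35. Of the 11 pairs 3 changed direction: Cd274 over Cd40 was -1.78 in the second quantification, Cd40 over Cd86 was -0.61 to 0.65 with 1 library left out (-0.61 without replicate 1), and Cd80 over Icosl was -0.06 to 0.94 (-0.06 without replicate 2). The coding share of abundance in the second quantification was 44.4% for Icam1, 27.5% for Cd83, 49.6% for Cd40 and 34.5% for Icosl (33.4%, 14.3%, 34.4% and 23.1% in the first). It moved by less than the spread for Cd86 and Vcam1. Tnfsf9, Cd274, Cd80 and Pdcd1lg2 have coding transcripts only, so their share could not move. The second quantification gave Cd40 many more reads on short transcripts; the cause was not tested. Depth limits Pdcd1lg2 alone among the members. No paired comparison of conditions was possible because there is 1 group, while gene pairs were compared within each library.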

Other observations

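Antigen presentation to CD4 T cells needs MHC class II beside costimulation. Of 10 class II presentation genes 7 were detected, with a median of 2.16 ± 0.55 TPM, against 37.9 ± 8.23 TPM for the costimulation and adhesion genes as given above. Cd74, the invariant chain, averaged 29.2 ± 7.84 TPM, H2-DMa, a peptide-loading chain, 8.34 ± 2.80 TPM and H2-Ab1, a class II beta chain, 6.22 ± 0.77 TPM. All 3 were above the median detected protein-coding gene at 4.94 TPM. H2-DMb2 and H2-Oa were not detected. H2-Ob, a chain of the inhibitor H2-O, depended on the quantification, with 44.0 TPM in the second and 0.16 TPM in the first; it was named after its values were seen.

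Genes of NF-kB feedback were high in the same libraries, with 8 of 8 detected and a median of 144 ± 29.8 TPM. Tnfaip3, which encodes the deubiquitinase A20, averaged 535 ± 141 TPM, Nfkbia, which encodes IkB-alpha, 405 ± 171 TPM, and Nfkbiz, which encodes IkB-zeta, 388 ± 193 TPM. Icam1, at 350 ± 153 TPM, was below these 3 in its mean, by less than its SD for Nfkbia and Nfkbiz. Without an unstimulated library no induction can be read from either group.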
